A study of Homo sapiens with 19 samples.

Results

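The sites described here are the vehicle-only ERRα sites of SKBr3 cells outside chromosome 7, that is, the regions where an ERRα peak was called in vehicle-treated cells and none was called after EGF or HRG. They were selected on the peak lists themselves. Vehicle, EGF and HRG peaks sharing 1 bp or more were joined into merged regions, and a region was kept when it held a vehicle peak and no EGF or HRG peak. This gave 6395 sites of 55998 merged regions, 50328 of which lie outside chromosome 7. Among the 28114 regions outside chromosome 7 with a vehicle peak, the vehicle-only sites make up 22.7%, a share that the selection itself sets. Another 15531 of these regions were called in all 3 lists (common sites), and 6188 were called on vehicle and 1 growth factor, 4528 of them on EGF and 1660 on HRG. The vehicle-only sites of chromosome 7, 2050 of 3418 vehicle regions there, were kept apart and serve as a further comparison.

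ERRα was mapped by chromatin immunoprecipitation and sequencing (ChIP-seq) in 19 libraries of human ERBB2-positive breast cancer cell lines, and the authors deposited 8 peak lists. SKBr3 and BT-474 cells were serum-starved for 24 h and then given vehicle, EGF at 100 μM or the ERBB3 ligand heregulin (HRG) at 100 μM for 90 min, doses given as the labels have them, whose unit is unusual for growth factors and was not checked. pSKBr3 are the untreated parental cells of the resistance experiment, and LRSKBr3 are SKBr3-derived cells made resistant to lapatinib, an EGFR and HER2 kinase inhibitor, and kept in lapatinib at 2 μM. No serum starvation is given for pSKBr3 or LRSKBr3, unlike the SKBr3 vehicle arm. Each SKBr3, pSKBr3 and LRSKBr3 list rests on 2 pooled ChIP libraries with 1 input, whereas each BT-474 list rests on 1 ChIP library, and the 3 BT-474 lists share 1 input, that of the vehicle arm. The lists range from 22539 peaks in pSKBr3 to 41271 on HRG in BT-474, and the 3 lists behind the selection hold 32183 peaks on vehicle, 32567 on EGF and 37195 on HRG. They hold neither tag counts nor values per replicate, so the read depth is unknown. A missing EGF or HRG peak therefore means only that the caller did not report one, and no loss of binding was tested.

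ERRα (ESRRA) is an orphan nuclear receptor that binds DNA as a monomer or dimer at the ERR response element, an extended nuclear receptor half-site. With its PGC-1 coactivators it is best known as a regulator of mitochondrial genes, among them those of oxidative phosphorylation, the tricarboxylic acid cycle and fatty acid oxidation. EGF and HRG activate receptors of the ERBB family, and the AP-1 factors are among the transcription factors that such signalling induces.

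The sequences below show the ERRE word in the 8 highest-scoring vehicle-only sites that carry it within 100 bp of the peak centre, since this word is what the receptor itself is known to recognise. Each is read 5′ to 3′ on the strand that carries the word, from GRCh37 (hg19), with 26 bases on each side, and the capitals mark the 9-letter word. The name is that of the nearest protein-coding gene.
NMUR2, chr5:151662568-151662628, minus strand: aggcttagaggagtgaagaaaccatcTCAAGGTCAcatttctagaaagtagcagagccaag
SEC61A1, chr3:127755044-127755104, minus strand: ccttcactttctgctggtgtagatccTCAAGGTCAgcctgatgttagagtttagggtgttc
RGS18, chr1:191497673-191497733, minus strand: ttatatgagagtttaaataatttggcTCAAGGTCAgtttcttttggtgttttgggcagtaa
FREM2, chr13:39298030-39298090, plus strand: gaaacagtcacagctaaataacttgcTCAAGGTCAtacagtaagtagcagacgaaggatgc
STAB2, chr12:104051935-104051995, plus strand: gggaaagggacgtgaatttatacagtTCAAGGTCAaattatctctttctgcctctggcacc
WIF1, chr12:65344836-65344896, minus strand: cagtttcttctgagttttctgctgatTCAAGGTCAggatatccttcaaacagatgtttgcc
NGDN, chr14:23965961-23966021, plus strand: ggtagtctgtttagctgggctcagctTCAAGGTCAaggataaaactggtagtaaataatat
CACUL1, chr10:120610475-120610535, plus strand: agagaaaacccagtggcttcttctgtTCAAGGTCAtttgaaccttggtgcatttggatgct

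For contrast, the next 2 windows hold no ERRE word. They are the central 201 bases of the 2 vehicle-only sites of highest score, near TSPAN14 and EYA2. Both are given on the plus strand of GRCh37.
TSPAN14, chr10:82258577-82258777: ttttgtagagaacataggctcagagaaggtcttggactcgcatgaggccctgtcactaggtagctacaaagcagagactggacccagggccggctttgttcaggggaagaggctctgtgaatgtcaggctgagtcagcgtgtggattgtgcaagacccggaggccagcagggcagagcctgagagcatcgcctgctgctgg
EYA2, chr20:45609993-45610193: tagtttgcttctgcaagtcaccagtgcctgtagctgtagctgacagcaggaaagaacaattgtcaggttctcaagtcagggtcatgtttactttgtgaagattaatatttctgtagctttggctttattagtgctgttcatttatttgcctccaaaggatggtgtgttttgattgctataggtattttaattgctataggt
The TSPAN14 window has a GC content of 57.2% and holds an AP-1 word, whereas the EYA2 window has 38.3% and no AP-1 word.

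The vehicle-only sites were weak peaks far from transcription starts. The authors' score of a peak is −10 log10 of the caller's P, and scores were compared only between peaks of the same list. The median score of the vehicle-only sites was 75.6 (interquartile range 60.2 to 109, highest 2528), where 50 is the lowest score the caller could report. This median corresponds to percentile 23.9 of the vehicle list, against percentile 71.7 at common sites and 39.4 at sites shared with 1 growth factor. Only 1890 sites (29.6%, interval 28.4 to 30.7%) reached a score of 100, that is, P at most 1e-10, whereas 83.9% of the common sites did. Shares are given with 95% Wilson intervals and differences of shares with 95% Newcombe intervals, which cover counting error only and not the spread between cultures. The median width was 1240 bp (interquartile range 1086 to 1736 bp), but 579 sites (9.05%) were 3 kb or wider and the widest spanned 22441 bp. The nearest EGF or HRG peak lay at a median of 12055 bp.

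Peaks just inside and just outside the selection had similar scores and similar shares in the other lists. The 115 vehicle-only sites with an EGF or HRG peak less than 200 bp away had a median score of 89.0, and 13% of them had a pSKBr3 peak and 47.0% an LRSKBr3 peak. The 27 vehicle regions just outside the rule, whose overlap with an EGF or HRG peak was under 200 bp, had a median score of 98.7, with 18.5% in pSKBr3 and 48.1% in LRSKBr3. The ERRE word stood at 5.22% of the former and at none of the 27. Most sites were farther away, 3538 of them more than 10 kb from any such peak.

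The centres of 3347 vehicle-only sites (52.3%, interval 51.1 to 53.6%) lay outside protein-coding genes, 2804 (43.8%) lay in introns and 244 (3.82%) in exons. A transcription start lay within 1 kb of 285 centres (4.46%, interval 3.98 to 4.99%), against 16.1% of the common sites, a difference of -11.6 percentage points (interval -12.4 to -10.8). When the vehicle peaks were put into 4 score classes at the quartiles of the whole vehicle list, class 1 being the lowest, the promoter share was below that of the common sites in each of them, at 4.48% against 15.2% in class 1 and 2.90% against 16.7% in class 4. The median distance to a start was 66992 bp at vehicle-only sites and 20403 bp at common sites, and 41.5% of the vehicle-only sites lay more than 100 kb from any start.

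The sequence at vehicle-only sites was poor in GC. Within 100 bp of the centre, the GC content was 41.7% ± 7.25 (SD over 6395 sites), against 49.0% ± 9.35 at 15531 common sites and 45.0% ± 8.95 at sites shared with 1 growth factor. The flanking windows 2 kb away had a GC content of 40.4% at vehicle-only sites and 45.5% at common sites, so the neighbourhood was GC-poor as well. CpG dinucleotides were at 8.41 per kb of peak at vehicle-only sites and 18.2 per kb at common sites. The lists behind the selection also differ in this measure, since the mean GC content outside chromosome 7 was 46.5% over the vehicle peaks, 46.7% over the EGF peaks and 50.6% over the HRG peaks. What part these differences between lists have in the selection was not tested. With the vehicle regions outside chromosome 7 also put into 3 GC classes of nearly equal number, the vehicle-only share ran from 65.0% in the GC-poorest class of score class 1 to 0.158% in the GC-richest class of score class 4.

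The presence of the vehicle-only sites in the 5 lists that the selection did not use was low. In pSKBr3, 680 sites had a peak (10.6%, interval 9.90 to 11.4%), against 74.7% of the common sites and 31.7% of the sites shared with 1 growth factor. In LRSKBr3, 1894 sites had a peak (29.6%, interval 28.5 to 30.7%), against 92.8% and 64.7%. With P at most 1e-10 required in the 3 SKBr3 lists, sites with a weaker EGF or HRG peak also counted as vehicle only, which gave 3680 sites. Their shares were 24.8% in pSKBr3, 53.0% in LRSKBr3 and 35.6% in the BT-474 vehicle list, against 85.1%, 96.5% and 70.5% of the common sites. With centres within 500 bp, the pSKBr3 share was 17.2%, and with the P limit on vehicle peaks alone 17.7%. In BT-474 cells, 1502 sites (23.5%) had a peak on vehicle, 1085 (17%) on EGF and 1574 (24.6%) on HRG, against 63.4%, 51.6% and 65.7% of the common sites. The difference from common sites was -64.0 percentage points in pSKBr3 (interval -65.0 to -63.0), -63.2 points in LRSKBr3 (interval -64.3 to -61.9) and -39.9 points in the BT-474 vehicle list (interval -41.1 to -38.6). In each of the 5 lists the share was lower at vehicle-only than at common sites on 22 of 22 chromosomes with chromosomes 7 and Y left aside. The vehicle-only sites of chromosome 7 were rarer still in the other lists, with 2.59% in pSKBr3, 5.22% in LRSKBr3 and 9.51% in the BT-474 vehicle list.

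**Figure D1:**
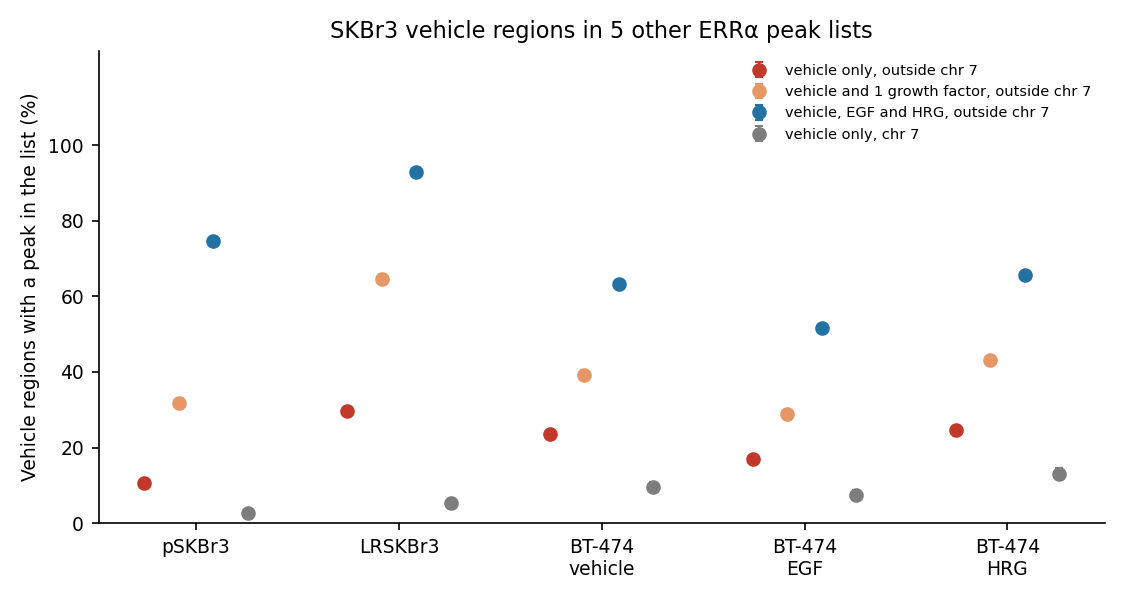
Share of SKBr3 vehicle regions with an overlapping peak in 5 other ERRα lists (y axis, %), for vehicle-only sites outside chromosome 7, sites shared with 1 growth factor, common sites and vehicle-only sites of chromosome 7. Points are shares with 95% Wilson intervals, many of them smaller than the symbol. In every list the vehicle-only sites outside chromosome 7 lie between those of chromosome 7 and the sites shared with 1 growth factor.

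These shares rose with the vehicle score, so the comparison was also made within the 4 score classes. In pSKBr3, the share of vehicle-only sites rose from 6.87% in class 1 through 12% and 19.3% to 37.7% in class 4, while common sites rose from 42.9% to 93.7%. In LRSKBr3, the vehicle-only sites had 23.6%, 34%, 40.9% and 40.6%, and the common sites 77.3%, 85.2%, 92.3% and 99.0%. Within each class the interval of the difference lay below 0 in both lines. In LRSKBr3 it was -53.7 points (interval -56.2 to -51.0) in class 1 and -58.4 points (interval -69.2 to -46.6) in class 4, where 69 vehicle-only sites remain. The difference was thus found among strong and weak peaks alike. GC content also moved with these shares. In the GC-poorest class 6.27% of the vehicle-only sites had a pSKBr3 peak and 19.2% an LRSKBr3 peak, and in the GC-richest class 22.7% and 54.0%. Common sites of the GC-poorest class had 62.8% and 88.6%, and those of the GC-richest class 84.2% and 95.6%. The BT-474 lists did not rise with GC content in this way. From the GC-poorest to the GC-richest class, vehicle-only sites had 21.6%, 27.0% and 21.4% in the BT-474 vehicle list, 17.7%, 18.4% and 10.6% in the EGF list and 25.1%, 26.3% and 18.3% in the HRG list. The mean GC content outside chromosome 7 was 52.5% over the pSKBr3 peaks and 50.1% over the LRSKBr3 peaks, and 42.8% over the BT-474 vehicle peaks.

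**Figure D2:**
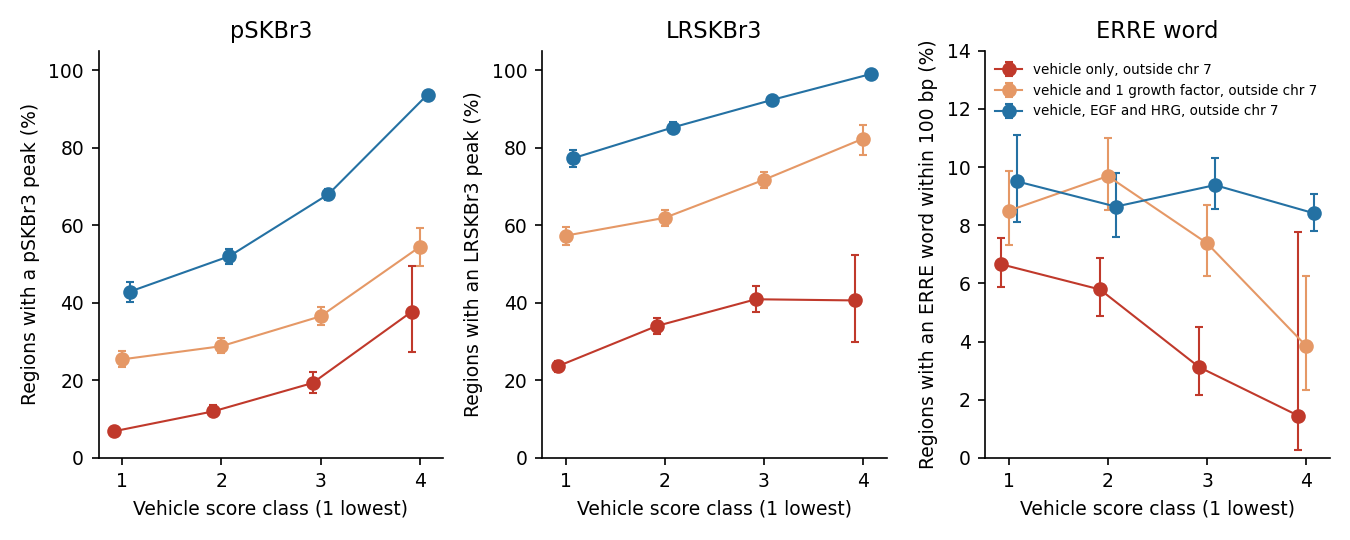
Share of vehicle regions with a pSKBr3 peak, an LRSKBr3 peak and an ERRE word (y axes, %) by class of the vehicle score (x axis, 1 is the lowest), for vehicle-only sites, sites shared with 1 growth factor and common sites outside chromosome 7, with 95% Wilson intervals. The vehicle-only sites lie lowest in both cell lines in every class, and their ERRE share falls from 6.66% in class 1 to 1.45% (1 of 69 sites) in class 4.

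No other list held a peak at 3281 vehicle-only sites (51.3%, interval 50.1 to 52.5%), whereas 2.52% of the common sites and 18.5% of the sites shared with 1 growth factor were without one. A single other list held 1321 sites, and 800 of these were found in LRSKBr3 alone. All 3 BT-474 lists but neither pSKBr3 nor LRSKBr3 held 407 sites. These patterns were not counted at other vehicle regions. Over all vehicle regions outside chromosome 7, an LRSKBr3 peak was at 72.2% and a BT-474 vehicle peak at 49.0%. At 144 sites (2.25%, against 39.3% of the common sites and 7.98% of the sites shared with 1 growth factor) all 5 lists had a peak, so that the EGF and HRG lists of SKBr3 were the only ones without a call. These 144 sites had a median score percentile of 47.8 in the vehicle list and a GC content of 43.8%.

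The strongest of those 144 sites was the TSPAN14 site printed above, in an intron of TSPAN14, a tetraspanin, at chr10:82256887-82260466. Its score was 2528 on SKBr3 vehicle, 1250 in pSKBr3, 710 in LRSKBr3 and 998, 552 and 1844 in BT-474 on vehicle, EGF and HRG. The nearest HRG peak of SKBr3 lay 5988 bp away and the nearest EGF peak 37089 bp away. In BT-474 the site was thus called after both growth factors, at percentiles 85.7 and 94.5 of those lists. EYA2, a phosphatase and transcriptional coactivator, held the next site in an intron at chr20:45605207-45614978, with a score of 1531, and 1050 in LRSKBr3. A TPRG1 site at chr3:189039198-189044101 scored 926 in SKBr3 and 3100, a value shared by many of the strongest peaks, in all 3 BT-474 lists. The other sites of this kind with the highest scores had SLC10A2 (725) and FGF10 (566) as the nearest gene, at 631604 and 149302 bp. FGF10 is a fibroblast growth factor, and its site reached percentiles 95.2, 96.4 and 96.7 of the 3 BT-474 lists in the order vehicle, EGF, HRG, against 65.7 in pSKBr3 and 70.6 in LRSKBr3.

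Most other sites of highest score were not shared in this way. A pair of peaks at the start of ZMYND8, a chromatin reader, scored 1526 (chr20:45984851-45992378) and 724 (chr20:45975319-45984840), with centres 2982 and 541 bp from a start. Both had a pSKBr3 peak, with scores of 1743 and 534, and neither had an LRSKBr3 or BT-474 peak. A second site in TSPAN14 scored 728 and had peaks in pSKBr3 (287) and LRSKBr3 (773) but in no BT-474 list. The FLRT2 site scored 1072 but lay 1179402 bp from the start of that gene, and it had peaks in LRSKBr3 (81.1) and in BT-474 on vehicle (62.2), EGF (131) and HRG (126) but none in pSKBr3. The sites nearest RIPK2 (746) and LRRC69 (721) lie on chromosome 8. The RIPK2 site had no peak in any other list, and the LRRC69 site only in BT-474 on EGF (50.7) and HRG (244). These 10 sites of highest score ranged in width from 1423 bp at the SLC10A2 site to 9772 bp at EYA2, and none carried an ERRE word within 100 bp of its centre.

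Vehicle-only sites called in another experiment were compared for the presence of a peak in its other arms. Of the 1502 sites with a BT-474 vehicle peak, 245 (16.3%, interval 14.5 to 18.3%) had neither a BT-474 EGF nor a BT-474 HRG peak, against 7.28% of the common sites and 11.9% of the sites shared with 1 growth factor. The difference was 9.03 percentage points from common sites (interval 7.18 to 11.1) and 4.42 points from sites shared with 1 growth factor (interval 2.18 to 6.73). Within 4 classes at the quartiles of the BT-474 vehicle score, the difference from common sites was 10.1 points in the lowest class (interval 4.07 to 16.2), then 6.32 (interval 1.96 to 11.1) and 2.07 (interval 0.218 to 4.62), and 0.281 in the highest (interval -0.159 to 1.70). Against sites shared with 1 growth factor, the interval excluded 0 in 1 of the 4 classes. Absence from the BT-474 EGF list was at 37.2% against 21.9% of the common sites, and from the lowest to the highest class at 74.0%, 57.3%, 21.4% and 3.26% against 73.9%, 50.4%, 17.5% and 1.47%. Absence from the BT-474 HRG list was at 20.4% against 8.73%, and by class at 46.3%, 30.7%, 8.97% and 1.09% against 35.6%, 20.3%, 4.67% and 0.306%. The EGF shares of the lowest class were thus nearly equal, whereas the HRG shares differed there by more than 10 points. The peaks that were vehicle only in both lines were thus mostly weak in BT-474, and the difference was small or undetectable among strong ones. Of the 680 sites with a pSKBr3 peak, 188 (27.6%, interval 24.4 to 31.1%) had no LRSKBr3 peak, against 2.22% of the common sites and 10.6% of the sites shared with 1 growth factor. This difference from common sites was 31.5 points in the lowest class of the pSKBr3 score (interval 26.1 to 37) and 8.92 points in the highest (interval 2.36 to 27.6). The share of 27.6% was 22.8% with P at most 1e-10 on vehicle peaks alone. It was 15.2% with this limit in the 3 SKBr3 lists and 16.7% when peaks were matched by centres within 500 bp. Under these last settings some sites with an overlapping EGF or HRG peak also counted.

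The 6 highest-scoring sites that were vehicle only in both SKBr3 and BT-474 had PDE3A, LPP, NFIA, PSMD1, C1orf105 and MECOM as the nearest gene. The PDE3A site, 379873 bp from the start of this cyclic nucleotide phosphodiesterase gene, scored 492 in SKBr3 and 63.0 in BT-474, and it was present in pSKBr3 (432) and LRSKBr3 (536). The site in an intron of NFIA, a nuclear factor I gene, scored 340 in SKBr3, 351 in BT-474, 171 in pSKBr3 and 305 in LRSKBr3. It lay only 115 bp from an EGF peak of SKBr3. The PSMD1 site (a proteasome subunit gene, start at 6248 bp) was also found in pSKBr3 and LRSKBr3, whereas those near LPP, C1orf105 and MECOM were found in neither.

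The ERRE word TCAAGGTCA was concentrated at the centre of the vehicle-only sites. It was searched on both strands within 100 bp of the peak centre and in windows of equal length 2 kb to each side. It stood at 373 centres (5.83%, interval 5.28 to 6.43%) and in 0.281% of the flanking windows (interval 0.203 to 0.389%). The share was 8.83% at common sites, 8.29% at sites shared with 1 growth factor and 1.56% at the vehicle-only sites of chromosome 7. The difference from common sites was -3.00 percentage points (interval -3.71 to -2.26), and from the chromosome 7 sites 4.27 points (interval 3.43 to 5.02). The shorter half-site AAGGTCA, which every ERRE word contains, was at 18.2% of the vehicle-only centres and in 3.75% of their flanks, against 30.5% and 3.98% for common sites.

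The word was most frequent in the weak and narrow vehicle-only peaks. By score class, from 1 to 4, it was at 6.66%, 5.79%, 3.12% and 1.45% of the vehicle-only sites, whereas common sites had 9.51%, 8.64%, 9.38% and 8.41%. The 1.45% is 1 of 69 sites (interval 0.256 to 7.76%). From class 1 to 4 the median width rose from 1124 to 4569 bp at vehicle-only sites and from 1131 to 1754 bp at common sites. Score and width were not separated. By width, the share fell from 13.8% (interval 10.6 to 17.8%) of the 354 sites under 1000 bp through 7.59% and 1.61% to 0.345% (interval 0.0948 to 1.25%) of the 579 sites of 3 kb or more. The narrowest common sites had 13.9% (interval 10.2 to 18.8%) and the widest 2.43% (interval 1.70 to 3.47%). Because the centre of a wide peak need not be its summit, words were also counted over whole peaks. Vehicle-only peaks held 187 words per Mb when under 1000 bp and 23.4 per Mb at 3 kb or more, against 226 and 74.8 per Mb at common sites. In peaks of 3 kb or more the windows 2 kb from the centre can lie within the peak.

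**Figure D3:**
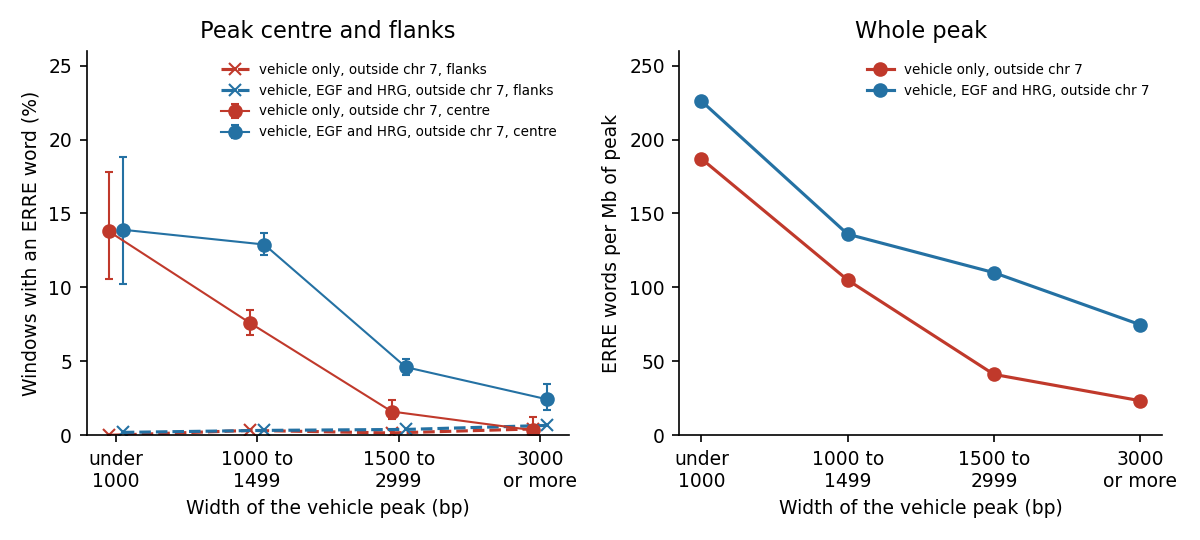
ERRE words by width of the vehicle peak (x axis, bp) at vehicle-only and common sites outside chromosome 7. Left, share of windows with a word (y axis, %) within 100 bp of the centre (circles, 95% Wilson intervals) and 2 kb away (crosses). Right, words per Mb of whole peak. At vehicle-only sites the centre share falls from 13.8% to 0.345%.

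Sites with the word were more often found elsewhere. Of the 373 vehicle-only sites with an ERRE, 18% had a pSKBr3 peak, 50.1% an LRSKBr3 peak and 35.7% a BT-474 vehicle peak, against 10.2%, 28.3% and 22.7% of the 6022 sites without it. The 2 sets had nearly equal GC content, at 41.8% and 41.7%, but the sites with the word were narrower, with medians of 1090 and 1258 bp. The word was at 11.8% of the sites found in all 5 other lists and at 2.65% of those found in none.

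The 8 sites printed above differed in the lists that held them. NMUR2, a neuromedin receptor gene, had the highest score of them, 497 on SKBr3 vehicle, with 69.3 in pSKBr3, no peak in LRSKBr3 and 372, 215 and 482 in BT-474 on vehicle, EGF and HRG. The site named after SEC61A1 lies in an intron of MGLL, which encodes monoacylglycerol lipase. It scored 310 in SKBr3, and 417 in pSKBr3, 211 in LRSKBr3 and 472, 255 and 542 in BT-474. The RGS18, FREM2 and STAB2 sites were likewise called in all 5 other lists. At STAB2, which encodes a scavenger receptor, the SKBr3 score was 262, the LRSKBr3 score 798 and the BT-474 vehicle score 858, and the nearest EGF and HRG peaks of SKBr3 lay 737 and 755 bp away. The site nearest WIF1, a secreted WNT inhibitor, was missing only from BT-474 on EGF, and the CACUL1 site was found only in LRSKBr3 (177). NGDN, whose site lies in its own gene body, was found in pSKBr3 (74.4) and LRSKBr3 (240) and in no BT-474 list. All 8 had a peak in at least 1 other list, and they were chosen by the vehicle score and the word alone.

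Words of other factors were fixed in a list of 10. The AP-1 word TGACTCA was at 3.22% of the vehicle-only centres (interval 2.82 to 3.68%) and in 3.09% of their flanks (interval 2.80 to 3.40%), so the centres held no more of it than the neighbourhood. Common sites had 8.63% at the centre and 3.38% in the flanks. The difference from common sites was -11.1 points in score class 1 (interval -13.0 to -9.26) and -1.05 points in class 4 (interval -4.62 to 7.15). The TFAP2 word GCCNNNGGC was at 5.49% of the vehicle-only centres and in 2.82% of the flanks, against 10.3% and 5.35% for common sites. The forkhead word TGTTTAC was at 5.50% of the centres and in 3.37% of the flanks, against 4.33% and 2.65% for common sites. The GATA word AGATAA did not mark the centre, with 15.7% and 16.0% in the flanks. The remaining words, CRE (TGACGTCA), ETS (CCGGAAGT), E-box (CACGTG) and NRF1 (GCGCATGCG), stood at 0.156%, 0.188%, 1.66% and 0.0625% of the vehicle-only centres. All were searched on both strands, only the ERRE contains another of them, its half-site, and a word describes the sequence and is not a bound site.

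The vehicle-only sites were spread unevenly over the chromosomes. Their share of the vehicle regions ran from 5.24% on chromosome 19 (34 of 649, interval 3.77 to 7.23%) to 43.4% on chromosome 20 (424 of 977, interval 40.3 to 46.5%), with 35.5% on chromosome 3 and 32% on chromosome 10. Chromosome 1 held most sites, 1101. Across 22 chromosomes the share of vehicle-only sites went with fewer of them in LRSKBr3, with Pearson's r of -0.863 and Spearman's rho of -0.855. On chromosome 20 an LRSKBr3 peak was at 13.7% of the vehicle-only sites, and on chromosome 22, where 7.10% of the vehicle regions were vehicle only, at 73.0%. With chromosomes 3 and 20 left out, r was -0.870. The share also went with a lower mean GC content of the sites (r = -0.811) and a larger median width (r = 0.636). The points are chromosomes of the same pooled lists and share their libraries, depth and base composition, so these values are descriptions with no test.

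**Figure D4:**
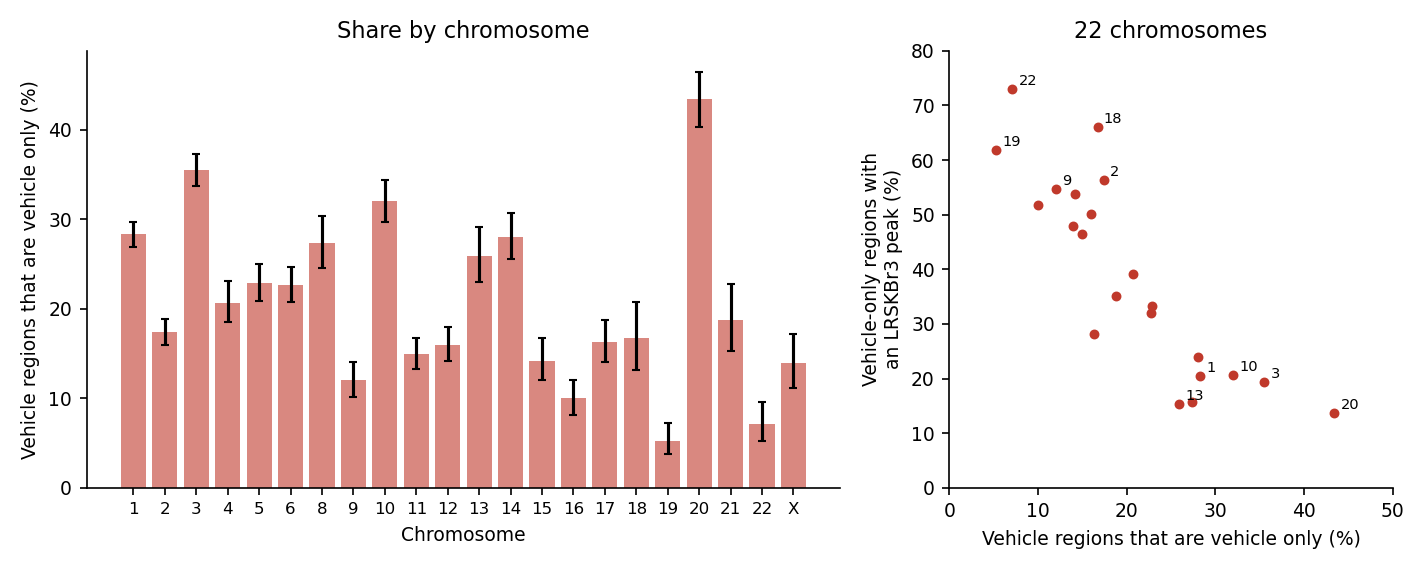
Left, share of vehicle regions that were vehicle only (y axis, %) on each chromosome other than 7 and Y, with 95% Wilson intervals. Right, the share of those vehicle-only sites with an LRSKBr3 peak (y axis, %) against the first share (x axis, %), 1 point per chromosome. Chromosome 20 has the highest vehicle-only share, 43.4%, and the lowest share in LRSKBr3, 13.7%.

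Within chromosomes the sites were also clustered. In windows of 5 Mb, 10 windows of 563 with a vehicle region held 17.5% of the vehicle-only sites. These 10 windows held 121 to 332 vehicle regions each. Of those regions 50.3 to 75.7% were vehicle only, against 22.7% of all vehicle regions outside chromosome 7. The fullest window, at 5 to 10 Mb of chromosome 3, held 228 vehicle-only sites among 332 vehicle regions (68.7%), of which 13 had a pSKBr3 peak, 4 an LRSKBr3 peak and 1 an ERRE word. In the window from 85 to 90 Mb of chromosome 14, 120 of 173 vehicle regions were vehicle only, with a median width of 4072 bp and no ERRE word. The window from 55 to 60 Mb of chromosome 10 held 103 of 136, none of them with a pSKBr3 peak. The windows were ranked by the same count and are a description.

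When the merged regions of the 3 lists were taken in genome order, 3490 vehicle-only sites (54.6%) stood alone, that is, with an EGF or HRG region or the end of a chromosome on both sides, and 1581 belonged to runs of 3 or more. Sites that stood alone were found more often elsewhere and carried the ERRE word more often than those in runs. An LRSKBr3 peak was at 39.7% of the sites standing alone, 26.1% of those in runs of 2, 14.7% in runs of 3 or 4 and 3.42% of the 614 sites in runs of 5 or more. The ERRE share fell in the same order, from 7.65% through 4.68% and 3.31% to 1.95%, and the mean GC content fell from 43.1% to 38.2%. The median width grew from 1168 to 1707 bp and the median distance to a start from 45464 to 176257 bp. The difference was also present in score classes 1 to 3. In score class 1, 31.7% of the sites standing alone and 6.62% of those in runs of 3 or more had an LRSKBr3 peak, and in score class 3 the shares were 56.4% and 18.1%. In score class 4 the shares were 46.7% of 30 sites and 36.8% of 19, with overlapping intervals (30.2 to 63.9% and 19.1 to 59.0%), and 12 and 8 of them had a pSKBr3 peak. The split by run was looked at after the values were seen.

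**Figure D5:**
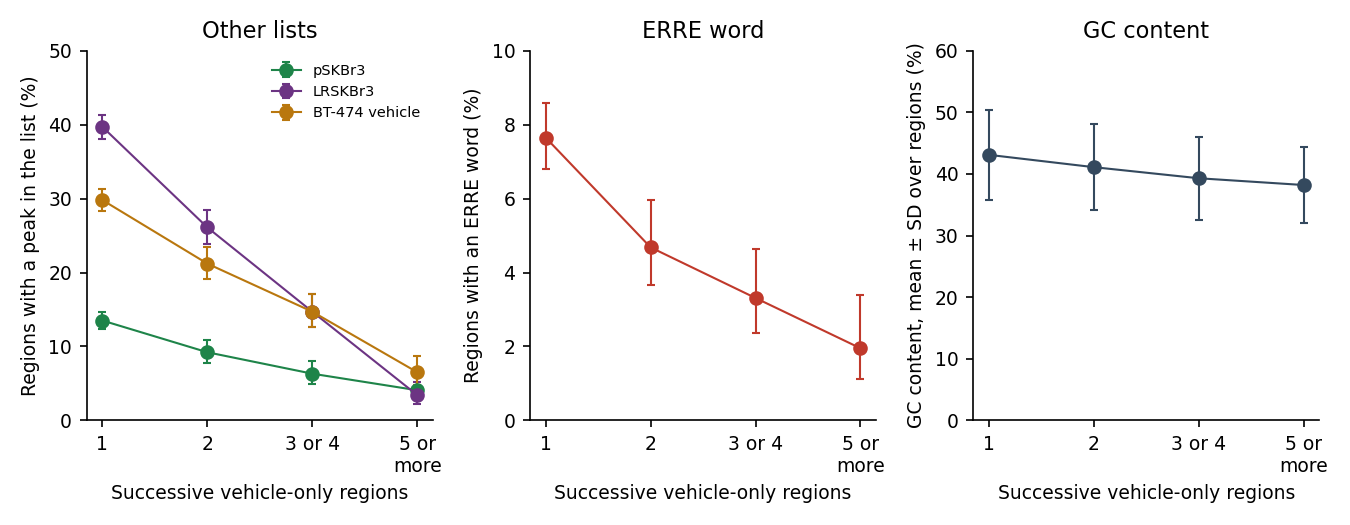
Vehicle-only sites by the number of successive vehicle-only regions they belong to (x axis). Left and middle, share with a peak in another list and with an ERRE word (y axes, %), with 95% Wilson intervals. Right, GC content within 100 bp of the centre (y axis, %), mean ± SD over sites. An LRSKBr3 peak was at 39.7% of sites standing alone and at 3.42% of those in runs of 5 or more.

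The longest runs lay in gene-poor stretches or inside long genes. A run of 16 sites at chr10:58467537-58567977 covered 100 kb with no protein-coding gene, its nearest start, of ZWINT, being 347084 bp away. Its mean GC content was 34%, none of its sites had an ERRE word, a pSKBr3 or an LRSKBr3 peak, and the scores ran from 50.1 to 261. Another run of 16 lay at chr4:190471593-190637655, 224920 bp from the start of FRG1, also with no ERRE word and no pSKBr3 or LRSKBr3 peak. A run of 15 at chr20:15435413-15662990 lay in MACROD2, a mono-ADP-ribosylhydrolase gene of great length, with 2 sites in the BT-474 vehicle list and none in pSKBr3 or LRSKBr3. The fourth, 11 sites at chr3:7437889-7499545 in the metabotropic glutamate receptor gene GRM7, had scores of 57.4 to 523 and 4 sites in pSKBr3.

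Genes of the programme that ERRα is known for were counted against all genes. Of 18873 protein-coding genes outside chromosome 7, 1726 (9.15%) had a vehicle-only site within 20 kb of a start. A common site as well was in range of 832 of them (48.2%, against 39.3% of all genes), and 695 had no other vehicle region in range. The counts depended on the site definition. The 1726 genes, 43 of them on the gene lists, became 527 and 14 with vehicle P at most 1e-10. Without sites within 10 kb of a growth factor peak they became 868 and 19. Among oxidative phosphorylation genes, 3 of 73 had a vehicle-only site, whereas 68 of 73 had a common site, which 39.3% of all genes had. These were ATP5PO, an ATP synthase subunit (score 413, 6932 bp), COX4I1, a cytochrome c oxidase subunit (120), and ATP5F1E, also of ATP synthase (58.2), and all 3 had a common site too. For the tricarboxylic acid cycle and pyruvate entry the count was 3 of 27, namely IDH1 (130), FH (83.8) and PDK1 (51.9), a kinase that inhibits pyruvate dehydrogenase. PDK1 had no common site, and its vehicle-only site, 290 bp from a start, was found in pSKBr3 and LRSKBr3. Fatty acid oxidation genes had 6 of 32. HADHA and HADHB, which encode the mitochondrial trifunctional protein, share 1 site (88.7), HADH follows with 85.7 at 316 bp from a start, and ACADVL, the very-long-chain acyl-CoA dehydrogenase gene, with 68.5. All 6 genes also had a common site in range, and all of their sites were found in LRSKBr3.

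Among genes of growth factor signalling, the ERBB receptors and ligands had 3 of 14, all of them ligand genes: EGF (128), BTC (104) and NRG2 (68.0). The EGF site lay 20 bp from a growth factor peak of SKBr3. Other receptor tyrosine kinases had 4 of 49, with FGFR2 (189), KDR (78.5), PTK7 (59.6) and FLT1 (58.6). The FLT1 site, near a VEGF receptor gene, carried an ERRE word and was found in no other list. The PI3K, AKT and mTOR pathway had 2 of 35, PIK3CA (86.8, 673 bp from a start) and IRS2 (52.8). AP-1 and immediate early genes had 5 of 37, led by NR4A2 (291), KLF6 (87.8), DUSP6 (66.0) and ZFP36L1 (61.1), and the KLF6 and DUSP6 sites carried an ERRE word. FOXO factors and their target genes had 5 of 28, of which BCL2L11 (126), a pro-apoptotic gene, was found in all 5 other lists, and CAT (63.2), the catalase gene, in LRSKBr3 and all 3 BT-474 lists. KLF6, at 87.8, and BCL6, at 55.4, were the others of highest score.

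The nuclear receptor list had 6 of 48 genes. NR4A2, an orphan receptor, had a site with a score of 291 that was found in all 5 other lists at 3725 bp from a start, with no common site. THRB, a thyroid hormone receptor gene, had 111 and was found in LRSKBr3 and all 3 BT-474 lists. ESRRG, which encodes the related receptor ERRγ, had 88.1 and PGR, the progesterone receptor gene, 80.8, neither of them in any other list. The luminal and oestrogen-responsive genes had 5 of 30, with KRT19 (240), IGFBP5 (164), GRHL1 (127) and BCL2 (94.7), and the KRT19 site was again found in all 5 other lists. Cadherins and catenins had 5 of 30, led by CDH23 (119), CTNNA3 (113), CTNND1 (91.6) and CDH24 (68.0). No gene was counted among 25 integrins, 24 circadian clock genes and 18 ionotropic glutamate receptors, which allows shares of up to 13.3%, 13.8% and 17.6%. With lists of 14 to 73 genes, the 95% Wilson intervals of these shares were wide, from 1.41 to 11.4% for oxidative phosphorylation and from 7.57 to 47.6% for the ERBB list. The oxidative phosphorylation interval included 9.15%, as did those of all other lists.

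The 10 highest-scoring vehicle-only sites within 1 kb of a start were at ZMYND8, MAT2B, LRRC34, TTC36, ENSG00000268163, USF1, OR4M2B, MYZAP, CARD8 and NCK2. MAT2B, the regulatory subunit of methionine adenosyltransferase, scored 342 with its centre 122 bp from a start, and 196 in LRSKBr3, with no pSKBr3 peak. In BT-474 it had weak peaks on vehicle (50.6) and HRG (50.1). USF1, an E-box binding factor, scored 256, with 267 in pSKBr3, 451 in LRSKBr3 and 119 in the BT-474 vehicle list. The MYZAP site (230) was found in LRSKBr3 (263) and the 3 BT-474 lists. CARD8, an inflammasome regulator, and NCK2, an SH2 and SH3 adaptor of receptor tyrosine kinases, scored 220 and 219 and were found in LRSKBr3 but not in pSKBr3. The CARD8 site also had a BT-474 vehicle peak (58.7). The LRRC34 and OR4M2B sites were found in no other list, and the OR4M2B site overlaps the annotated olfactory receptor genes OR4M2 and OR4M2B, so that its assignment to either of them is uncertain. Taking all 285 sites within 1 kb of a start, 35.1% had a pSKBr3 peak and 67.4% an LRSKBr3 peak, against 9.49% and 27.9% of the other 6110 sites. Their GC content was 49.5%, and 2.81% carried an ERRE word.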

How the data were processed

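ERRα was measured by ChIP-seq in 19 libraries. The authors aligned reads to hg19 with BWA 0.5.9, handled them with SAMtools 0.1.18, and called peaks with MACS against input at P 1e-05, and they deposited 1 peak list per condition with replicates pooled, so values per replicate, read depth and the SD between cultures were not analysed here. The deposited score of each peak is −10 log10 P. No column of another sample was left over.

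Peaks were merged by 1 bp overlap, the highest-scoring vehicle peak stood for each region, and sequence was read from GRCh37 with pysam 0.24.0 and gene starts from GENCODE protein-coding genes (Python 3.11.15, pandas 2.3.3, numpy 2.4.6, scipy 1.17.1, matplotlib 3.10.9). Words were sought within 100 bp of the vehicle peak centre and in flanking windows 2 kb away, promoters within 1 kb and genes within 20 kb of a start. Sites are not replicates, so shares carry 95% Wilson or Newcombe intervals and no p-value was computed. The scripts were tested on simulated peaks. The vehicle list enters every comparison with EGF and HRG. The members, 14 gene lists and 10 words were chosen with earlier results of these data known. Sites are named by the nearest gene for the 10 highest scores, the 8 highest with an ERRE, the 10 highest within 1 kb of a start, the 6 highest found in all 5 other lists (1 of them is not reported here), the 6 highest that were vehicle only in BT-474 as well, the longest runs, and up to 4 genes of each list. Alternatives covered the overlap rule, the P limit, list size, window, distance to a start or growth factor peak, and omission of the chromosome with most sites. Omission of runs of 3 or more and of sites of 3 kb or wider was added after the data were seen.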

Additional observations from a re-analysis of the deposited data

How the results depend on the processing

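Of 143 alternatives computed, 91 left a share within its interval, the GC content within 1 SD or a count within 1.5 times. The vehicle-only sites stayed below the common sites in all 5 other lists and in the ERRE and AP-1 words under the 7 alternatives of the site definition for which the difference was computed (P at most 1e-10 on vehicle or in the 3 lists, 50% overlap, centres within 500 bp, and omission of chromosome 1, of runs or of wide sites), from -61.3 to -43.5 points in LRSKBr3 and from -4.46 to -2.00 points for the ERRE. The number of sites was 3538 with no EGF or HRG peak within 10 kb, 1890 with vehicle P at most 1e-10, and 3680 with this limit in the 3 lists. The last setting ignores weaker EGF and HRG peaks, so it also takes in sites that had one.

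With 50% overlap of both peaks, the share was 13.5% in pSKBr3, 32.9% in LRSKBr3 and 24.9% in the BT-474 vehicle list, the pSKBr3 peaks without LRSKBr3 were 21.5% and the AP-1 share 3.79%. With centres within 500 bp, these values were 17.2%, 36.1%, 27.6%, 16.7% and 3.8%, the BT-474 vehicle-only share was 14.4% and the promoter share 5.32%. With vehicle P at most 1e-10, the shares were 17.7%, 38.7% and 29.3%, the pSKBr3 peaks without LRSKBr3 22.8%, the ERRE share 4.29%, and 527 genes and 14 list genes remained in range. With P at most 1e-10 in the 3 lists, the shares were 24.8%, 53.0% and 35.6%, the BT-474 vehicle-only share 12.8%, the pSKBr3 peaks without LRSKBr3 15.2% and the promoter share 6.55%. With 3 lists of equal size, pSKBr3 had 11.5% and LRSKBr3 31.2%. Without sites within 10 kb of a growth factor peak, LRSKBr3 had 28.4%, the ERRE share was 7.15%, and 868 genes and 19 list genes were in range. Without chromosome 1, LRSKBr3 had 31.5% and BT-474 vehicle 25.3%. Without runs of 3 or more, pSKBr3 had 12.3%, LRSKBr3 36%, BT-474 vehicle 27.4%, pSKBr3 without LRSKBr3 24.4%, the ERRE 6.83% and promoters 5.48%. Without sites of 3 kb or wider, LRSKBr3 had 31.1% and BT-474 vehicle 24.6%. The ERRE share was 8.16% within 250 bp, 3.39% within 50 bp and 18.2% for the half-site, and the AP-1 share 8.01% and 1.49%. Promoters were 3.32% within 500 bp and 11.4% within 5 kb, and 1117 genes had a site within 10 kb. Except where fewer sites or another window set the change, the cause was not tested.

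No paired analysis was possible because the peak lists analysed here pool the replicates of a condition or rest on 1 ChIP library, and for the same reason no replicate was left out. Values per replicate were not analysed here. The lists give neither read depth nor counts, so a missing peak cannot be told apart from a peak just under the caller's limit.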

Other observations

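The vehicle-only sites were also grouped by the distance to the nearest EGF or HRG peak. From the class at 100 to 1000 bp outward the ERRE share rose with distance. The shares in pSKBr3, LRSKBr3 and the BT-474 vehicle list showed no even trend. The 901 sites with no EGF or HRG peak within 50 kb carried the ERRE word at 9.66%, with 35.1% in LRSKBr3 and 32% in the BT-474 vehicle list. The 2637 sites at 10 to 50 kb had 6.30%, 26.1% and 21.2%, and the 1036 sites at 5 to 10 kb had 4.73%, 29.3% and 21.6%. Those at 1 to 5 kb, 1304 sites, had 3.99%, 30.4% and 21.5%. The 46 sites under 100 bp from such a peak had 6.52%, 45.7% and 34.8%, and the 471 sites at 100 to 1000 bp had 3.40%, 35.7% and 28.5%, while a pSKBr3 peak was at 13% of the sites under 100 bp and 13.4% of those beyond 50 kb. The median width was 1127 bp in the most isolated class and 1282 bp at 1 to 5 kb. These classes were looked at after the data were seen.

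The 5 other lists also split the vehicle-only sites by base composition. The 492 sites found in both pSKBr3 and LRSKBr3 had a GC content of 47.1%, and 19.1% of them lay within 1 kb of a start. The 1402 sites found in LRSKBr3 but not in pSKBr3 had 44.3% and 6.99%, and the 188 found in pSKBr3 but not in LRSKBr3 had 43.4% and 3.19%. The 882 sites found in all 3 BT-474 lists had a GC content of 41.5%, with 3.97% near a start. The ERRE share was alike in these classes, from 9.35% in the first to 11.2% in the third.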
